A study of Mus musculus with 4 samples.

Results

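The genes described here encode proteins of the extracellular matrix other than collagens, together with the enzymes and inhibitors that process and degrade it. They were taken as every probe set annotated with exactly 1 gene symbol out of a list of 45 genes. In the annotation used, 40 of the 45 genes had such a probe set, and these 40 genes had 75 probe sets, of 17097 genes and 28898 such probe sets in the series. Fbn1, Efemp2, Thbs1, Nid2 and Lama4 are not listed there with a symbol of their own and were not analysed here. The RNA came from splenic dendritic cells (DC), the antigen-presenting cells that prime T cells. MARCO is a scavenger receptor that binds bacteria and particles, and the study asked how its absence changes DC at rest and after lipopolysaccharide (LPS), a bacterial ligand of TLR4. The 4 groups were MARCO-/- DC with PBS, WT DC with PBS, MARCO-/- DC with LPS and WT DC with LPS, with 1 array each. All cells came from untreated young adult mice on a background labelled C56BL/6 and matched for age and sex, with the WT mice bought from a supplier. They were selected for CD11c from pools of several mice, carry the label CD11c+CD80+CD86+MHC-II+, and were cultured overnight. The MARCO-/- mice lack the receptor in all cells, not in DC alone.

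The matrix is laid down mainly by fibroblasts, smooth muscle cells and other stromal cells, and splenic DC are not known as a main source of it. Matricellular proteins such as periostin and SPARC sit in the matrix and change how cells attach to it. Small leucine-rich proteoglycans coat collagen fibrils, elastic fibres give recoil, basement membranes underlie endothelium and muscle, lysyl oxidases cross-link collagen and elastin, and metalloproteases cut the matrix under the control of the TIMP inhibitors.

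The values are RMA intensities as the authors deposited them, on a linear scale, and a fold is the ratio of 2 arrays. With 1 array a group, no ratio has a test or an error, and an array and its condition cannot be told apart. Calls were made at 2-fold or more, which is the study's own threshold. The median of all intensities was 4.87, and a fold against a value near it is set by that floor. The medians of the 4 arrays lay between 4.72 and 4.98. Each array enters 2 of the 4 comparisons, so the comparisons are not independent of each other. Of the 40 genes, 9 were taken as named by the study (Mgp, Postn, Sparc, Fn1, Timp1, Mmp2, Bgn, Ccn2 and Dcn). Mgp, Postn, Sparc, Fn1, Timp1 and Mmp2 were named from these same arrays, so their directions are not independent evidence. Bgn is not named in the study's running text. By RT-PCR of resting DC, the study reported Ccn2 (as CTGF) and Dcn as decreased in MARCO-/- and Mmp2 as increased. For Ccn2 and Dcn that is opposite to the direction of the PBS arrays below. The RT-PCR used several pooled samples per genotype, while the array direction rests on 1 array per group.

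Marco, the gene deleted in the mice, had 3.95 in MARCO-/- and 8.05 in WT with PBS, and 4.25 in MARCO-/- and 3.15 in WT with LPS. These values lie near the background, so that Marco does not check the genotype of the LPS arrays, and every direction below is that of the arrays as labelled. Of 8 DC markers, none differed 2-fold between genotypes with PBS or with LPS. Their summed intensity was 12654 in MARCO-/- and 12040 in WT with PBS, and 5327 in MARCO-/- and 5977 in WT with LPS. H2-Aa, H2-Ab1 and Cd74 were the brightest of these markers on each array. The markers did not move together with LPS. Itgax, which encodes CD11c, had 16.4 with LPS and 621 with PBS in MARCO-/-, and 12.9 with LPS and 548 with PBS in WT. H2-Aa, H2-Ab1, Cd74 and Flt3 were also lower with LPS in both genotypes, while Zbtb46, Cd80 and Cd86 were higher in both. Cd80 had 251 with LPS and 75.3 with PBS in MARCO-/-, and 184 with LPS and 56.2 with PBS in WT. In these bulk samples, fewer cells of a type and less RNA per cell cannot be told apart.

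Most of the matrix probe sets had their highest value on the same array. Of the 75, 57 were highest on the WT LPS array, 9 on MARCO-/- PBS, 4 on MARCO-/- LPS and 2 on WT PBS, and 3 had tied highest values. The lowest value was on WT PBS for 33 and on MARCO-/- LPS for 30. WT LPS was first and MARCO-/- PBS second for 41 of the 75. Levels were low in most of them: 25 never exceeded the median of all intensities, 22 probe sets of 16 genes exceeded 4 times that median, and 5 reached 100. Of the 22 brighter ones, 15 had WT LPS first and MARCO-/- PBS second. The shares of all probe sets with these orders were not counted, and WT LPS had the highest array median, 4.98. Summed over the brightest probe set of each of the 40 genes, the intensity was 698 in MARCO-/- and 299 in WT with PBS, and 366 in MARCO-/- and 1669 in WT with LPS.

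**Figure D1:**
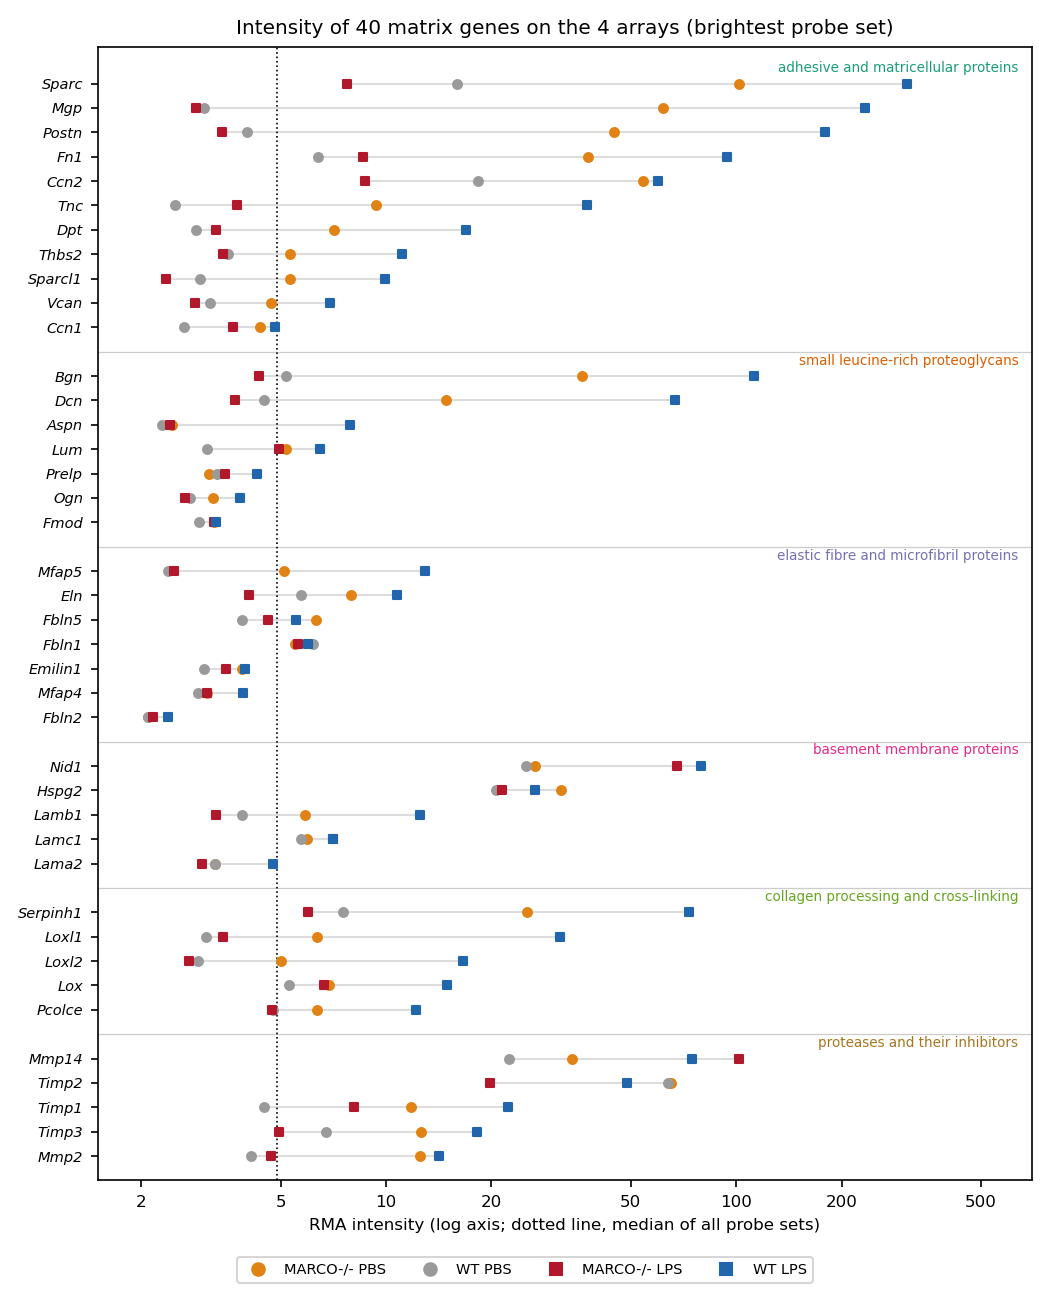
Intensity (log axis) of the brightest probe set of each of the 40 matrix genes on the 4 arrays, grouped by role; each point is 1 array and the dotted line is the median of all intensities, 4.87. In the adhesive, proteoglycan and cross-linking groups the WT LPS point lies farthest to the right in every gene and the MARCO-/- PBS point is mostly next, while Nid1 and Mmp14 have both LPS points to the right.

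With PBS, 17 of the 75 matrix probe sets (22.7%) were called higher in MARCO-/- than in WT DC, against 0.602% of all probe sets with 1 gene symbol. None was called lower, against 0.336% of all. Their median log2 ratio was 0.42, and that of all such probe sets was 0. With LPS the picture was the opposite. Of the 75, 37 (49.3%) were called lower in MARCO-/- than in WT, against 1.08% of all, and 1 was 2-fold higher, against 2.12% of all. The median log2 ratio with LPS was -0.96, and that of all was 0. All 17 probe sets that were higher with PBS were lower with LPS, and these stood for 14 genes. That opposite pair of calls was met by 0.249% of all probe sets with 1 gene symbol, or 72 of them. A further 20 matrix probe sets were lower with LPS alone. Counted by the brightest probe set of each of the 40 genes, 14 were higher with PBS, against 0.760% of all genes, and 0 were lower, against 0.287% of all genes. With LPS, 25 were lower, against 1.31% of all genes, and 0 were higher, against 2.09% of all genes.

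**Figure D2:**
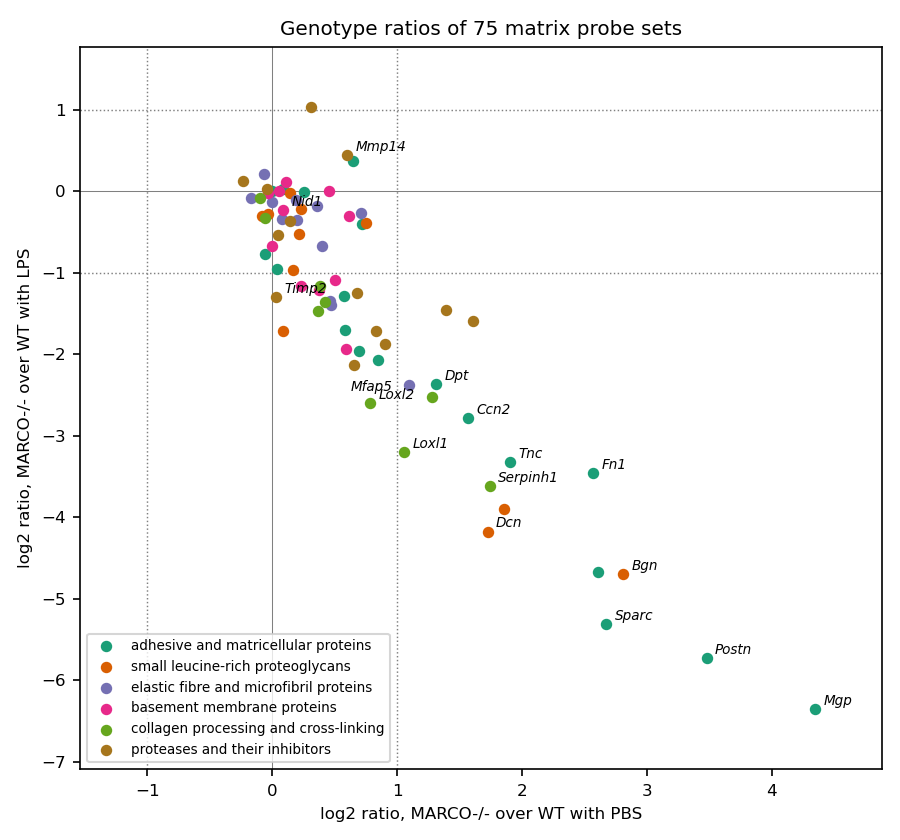
The horizontal axis is the log2 genotype ratio, MARCO-/- over WT, in PBS cultures and the vertical axis is the same ratio in LPS cultures, for the 75 matrix probe sets, coloured by role, with dotted lines at 2-fold and the brightest probe set of some genes named. The points spread from the origin to the lower right, with Mgp, Postn, Sparc and Bgn farthest out, and Mmp14 lies above 0 on both axes.

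The adhesive and matricellular group held the widest differences. Of its 11 annotated genes, 7 were 2-fold higher in MARCO-/- with PBS and 10 were 2-fold lower with LPS. Over all genes these shares were 0.760% and 1.31%, here and for the role groups below, each of which holds few genes. Mgp, matrix Gla protein, an inhibitor of tissue calcification, had 61.7 in MARCO-/- and 3.03 in WT with PBS (20.4-fold higher), and 2.86 in MARCO-/- and 233 in WT with LPS (81.8-fold lower). Its low values, 3.03 and 2.86, are both below the median of all intensities, so Mgp was at background on the WT PBS and MARCO-/- LPS arrays. Postn, or periostin, which links collagen to cell surfaces, had 44.6 in MARCO-/- and 4.01 in WT with PBS (11.1-fold higher), and 3.39 in MARCO-/- and 179 in WT with LPS (52.9-fold lower). Periostin too was near background on the arrays where it was low.

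Sparc, which encodes osteonectin, a collagen-binding glycoprotein, had the highest intensity among the matrix probe sets. It had 102 in MARCO-/- and 15.9 in WT with PBS (6.39-fold higher), and 7.71 in MARCO-/- and 307 in WT with LPS (39.9-fold lower). The other Sparc probe set gave 6.11-fold higher and 25.5-fold lower. Unlike Mgp and Postn, Sparc stayed above the median of all intensities on each array by its brighter probe set. Fn1, the fibronectin that integrins bind, had 37.8 in MARCO-/- and 6.38 in WT with PBS (5.93-fold higher), and 8.57 in MARCO-/- and 94.2 in WT with LPS (11.0-fold lower). Ccn2, connective tissue growth factor, had 54.3 in MARCO-/- and 18.3 in WT with PBS (2.97-fold higher), and 8.71 in MARCO-/- and 59.9 in WT with LPS (6.88-fold lower). Unlike Mgp, Postn, Sparc and Fn1, Ccn2 had MARCO-/- PBS and WT LPS values close together, as did Mmp2 (12.5 and 14.2).

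Tnc, tenascin C, a large glycoprotein of injured and developing tissue, had 9.35 in MARCO-/- and 2.50 in WT with PBS (3.74-fold higher), and 3.75 in MARCO-/- and 37.6 in WT with LPS (10.03-fold lower). A second Tnc probe set stayed at background, between 1.76 and 2.10. With 16 added to each intensity before log2, the PBS difference of Tnc was under 2-fold. The other members of the group were dim. Dpt, or dermatopontin, ranged between 2.86 and 16.9, Thbs2, a thrombospondin, between 3.42 and 11.1, Sparcl1, a relative of SPARC, between 2.35 and 9.92, and the proteoglycan Vcan between 2.84 and 6.91. Each of these 4 was highest in WT with LPS. Ccn1 did not exceed the median of all intensities by its brightest probe set.

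Among 7 small leucine-rich proteoglycans, 2 were 2-fold higher in MARCO-/- with PBS and 3 were 2-fold lower with LPS. Bgn, biglycan, had 36.2 in MARCO-/- and 5.17 in WT with PBS (7.01-fold higher), and 4.33 in MARCO-/- and 112 in WT with LPS (25.9-fold lower). Its other probe set gave 3.63-fold higher and 14.9-fold lower. Dcn, decorin, which binds collagen fibrils and TGF-β, had 14.8 in MARCO-/- and 4.48 in WT with PBS (3.30-fold higher), and 3.71 in MARCO-/- and 67.0 in WT with LPS (18.1-fold lower). Both were thus clearly above background in MARCO-/- with PBS and in WT with LPS, and near it on the other arrays, though the PBS difference of Dcn was under 2-fold with 16 added. Aspn, asporin, had between 2.30 and 2.44 on the other 3 arrays and 7.88 in WT with LPS. Lum, or lumican, lay between 3.08 and 6.48, and Prelp, Ogn and Fmod stayed at or below the median of all intensities.

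The elastic fibre and microfibril genes were near background as a group. Of 7 annotated genes, 1 was 2-fold higher in MARCO-/- with PBS and 2 were 2-fold lower with LPS. Mfap5, a microfibril glycoprotein, ranged between 2.39 in WT with PBS and 12.9 in WT with LPS, and it was the gene called in both. Eln, the elastin that forms the core of elastic fibres, ranged between 4.07 in MARCO-/- with LPS and 10.8 in WT with LPS. The fibulins Fbln1 (5.50 to 6.18) and Fbln5 (3.87 to 6.32) varied by less than 2-fold over the arrays, and Fbln2, Emilin1 and Mfap4 did not exceed the median of all.

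Of 5 annotated basement membrane genes, none was 2-fold higher in MARCO-/- with PBS and 1 was 2-fold lower with LPS. By probe set, 0 of 11 were higher with PBS and 4 of 11 were lower with LPS. Nid1, nidogen, which bridges laminin and collagen IV, had 26.6 in MARCO-/- and 25.0 in WT with PBS, and 67.7 in MARCO-/- and 79.5 in WT with LPS. Its genotype differences were 1.06-fold and 1.18-fold, while LPS was 2.54-fold above PBS in MARCO-/- and 3.18-fold above PBS in WT. Hspg2, perlecan, had 31.5 in MARCO-/- and 20.6 in WT with PBS, and 21.5 in MARCO-/- and 26.6 in WT with LPS, and its brightest probe set passed 2-fold in no comparison. A second Hspg2 probe set was 2.32-fold lower in MARCO-/- with LPS. Nid1 and Hspg2 were chosen for values in full after these had been seen. Among the laminin chains, Lamb1 ranged between 3.28 in MARCO-/- with LPS and 12.5 in WT with LPS, Lamc1 between 5.72 and 7.03, with a second probe set 2.13-fold lower in MARCO-/- with LPS, and Lama2 did not exceed 4.74.

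All 5 genes of collagen processing and cross-linking were 2-fold lower in MARCO-/- with LPS, and 2 were 2-fold higher with PBS. Serpinh1, or HSP47, the chaperone of procollagen in the endoplasmic reticulum, had 25.3 in MARCO-/- and 7.55 in WT with PBS (3.35-fold higher), and 5.98 in MARCO-/- and 73.4 in WT with LPS (12.3-fold lower). Its second probe set gave 2.43-fold higher and 5.75-fold lower. Loxl1, a lysyl oxidase of elastic fibres, had 6.35 in MARCO-/- and 3.05 in WT with PBS (2.08-fold higher), and 3.42 in MARCO-/- and 31.4 in WT with LPS (9.17-fold lower). Loxl1 rests on 1 probe set, since the other stayed between 2.54 and 2.88. With 16 added before log2, the PBS differences of both Serpinh1 and Loxl1 were under 2-fold. Loxl2 (2.73 to 16.6), Lox (5.29 to 14.9) and Pcolce, the enhancer of procollagen cleavage (4.74 to 12.2), were each highest in WT with LPS.

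Members that moved together in both genotype comparisons are shown by their promoters, 250 bases before to 50 after the annotated start, from RefSeq on the build GRCm38.p6. Of the 14 genes called in opposite directions by the brightest probe set, 7 had a promoter listed, 5 of these had a single start, and the 3 with the largest LPS difference are printed 5′ to 3′ on the strand of the gene. Capitals mark GGGCGG, the Sp1 box, on either strand. Sparc lies on the minus strand at chr11:55420031-55420330, Bgn on the plus strand at chrX:73483351-73483650 and Serpinh1 on the minus strand at chr7:99353190-99353489.
Sparc promoter: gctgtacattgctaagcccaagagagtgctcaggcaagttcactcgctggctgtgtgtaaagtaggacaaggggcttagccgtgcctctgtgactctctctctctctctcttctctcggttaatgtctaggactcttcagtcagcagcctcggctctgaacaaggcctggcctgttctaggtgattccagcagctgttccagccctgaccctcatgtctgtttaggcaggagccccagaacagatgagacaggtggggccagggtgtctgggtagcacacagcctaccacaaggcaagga
Bgn promoter: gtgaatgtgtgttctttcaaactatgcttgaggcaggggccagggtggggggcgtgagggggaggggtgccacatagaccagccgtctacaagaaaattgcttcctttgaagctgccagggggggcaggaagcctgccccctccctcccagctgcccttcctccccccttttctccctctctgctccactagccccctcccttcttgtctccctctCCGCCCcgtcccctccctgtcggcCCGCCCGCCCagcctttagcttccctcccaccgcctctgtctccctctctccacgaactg
Serpinh1 promoter: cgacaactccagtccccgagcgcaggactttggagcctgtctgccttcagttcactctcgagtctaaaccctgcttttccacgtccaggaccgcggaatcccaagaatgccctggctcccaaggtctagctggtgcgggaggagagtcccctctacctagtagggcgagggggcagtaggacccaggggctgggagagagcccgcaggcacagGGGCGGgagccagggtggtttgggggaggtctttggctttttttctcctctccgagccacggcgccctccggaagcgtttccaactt
Bgn held 3 matches, of which 2 overlap, Serpinh1 held 1 and Sparc held none. Of the 45 genes, 28 had a promoter in the table, and 18 of these (64.3%) held GGGCGG, against 35.9% of 27025 promoters. TATAAA was found in 6 (21.4%, against 14.2%), CACGTG in 1 (3.57%, against 7.24%), GGAATG in 4 (14.3%, against 14.6%) and TGANTCA in 0 (against 7.93%), each searched on both strands. A match is a description of letters, not of a bound site.

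Of 5 proteases and inhibitors, 2 were 2-fold higher in MARCO-/- with PBS and 4 were 2-fold lower with LPS, and Mmp14 and Timp2 had an array order of their own. Mmp14, the membrane-type metalloprotease that activates pro-MMP2, had 34.0 in MARCO-/- and 22.5 in WT with PBS, and 102 in MARCO-/- and 74.9 in WT with LPS. Its genotype differences were 1.52-fold and 1.36-fold higher, both under 2-fold. LPS was 2.995-fold above PBS in MARCO-/- and 3.34-fold above PBS in WT. A second, dimmer Mmp14 probe set had 9.46 in MARCO-/- and 4.63 in WT with LPS (2.04-fold higher), and it was the 1 matrix probe set called higher in MARCO-/- with LPS. By the brighter one, Mmp14 was high on both LPS arrays.

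Timp2, an inhibitor that also takes part in MMP2 activation, had 65.1 in MARCO-/- and 63.8 in WT with PBS, and 19.8 in MARCO-/- and 48.7 in WT with LPS (2.46-fold lower). LPS was 3.28-fold below PBS in MARCO-/- and 1.31-fold below PBS in WT. Timp2 was thus low on 1 array of the 4, MARCO-/- with LPS. Of its 5 probe sets, 3 were 2-fold lower in MARCO-/- with LPS, and the brightest was under 2-fold with 16 added. Timp1, a secreted inhibitor induced in inflamed tissue, had 11.8 in MARCO-/- and 4.49 in WT with PBS (2.63-fold higher), and 8.10 in MARCO-/- and 22.3 in WT with LPS (2.75-fold lower). Both Timp1 differences were under 2-fold with 16 added. Mmp2, gelatinase A, ranged between 4.12 in WT with PBS and 14.2 in WT with LPS, and was called in both genotype comparisons. Timp3, which binds to the matrix, ranged between 4.95 in MARCO-/- with LPS and 18.2 in WT with LPS, and was called in the second alone.

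The response to LPS differed in sign between the genotypes for many of these genes. In MARCO-/- DC, 20 of the 75 (26.7%) were 2-fold lower with LPS than with PBS, against 5.53% of all with 1 gene symbol, and 3 were 2-fold higher, against 5.78% of all. In WT DC, 38 (50.7%) were 2-fold higher with LPS, against 5.20% of all, and none was 2-fold lower, against 8.32% of all. The median log2 ratio of LPS over PBS was -0.33 in MARCO-/- and 1.07 in WT, and that of all was 0 in MARCO-/- and 0.03 in WT. By the brightest probe set, 15 genes were lower with LPS in MARCO-/- (5.98% of all genes) and 2 were higher (6.32% of all genes), while in WT 26 were higher (6.20% of all genes) and 0 lower (8.31% of all genes). LPS lay 2-fold below PBS in MARCO-/- and 2-fold above it in WT for 17 probe sets, a pair of calls met by 0.242% of all. Mgp was 21.6-fold lower with LPS in MARCO-/- and 77.1-fold higher with LPS in WT, Postn 13.2-fold lower and 44.7-fold higher, and Sparc 13.2-fold lower and 19.3-fold higher. Bgn was 8.37-fold lower and 21.7-fold higher, Fn1 4.41-fold lower and 14.8-fold higher, and Ccn2 6.23-fold lower and 3.28-fold higher. Only the brightest probe sets of Mmp14 and Nid1 were 2-fold higher with LPS in both genotypes, and 3 Timp2 probe sets were lower in MARCO-/- and under 2-fold in WT.

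**Figure D3:**
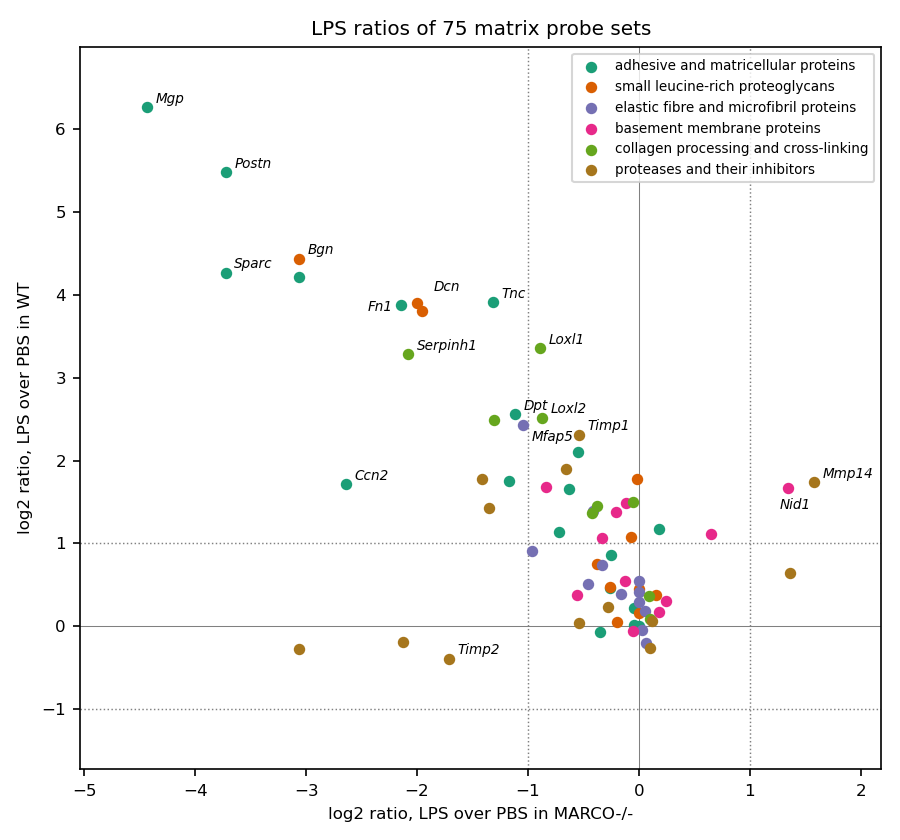
Log2 ratio of LPS over PBS in MARCO-/- DC (horizontal axis) and in WT DC (vertical axis) for the 75 matrix probe sets, coloured by role, with dotted lines at 2-fold. Mgp, Postn, Sparc and Bgn lie at the upper left, lower with LPS in MARCO-/- and higher in WT, while Nid1 and Mmp14 lie at the upper right and Timp2 at the lower left.

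**Figure D4:**
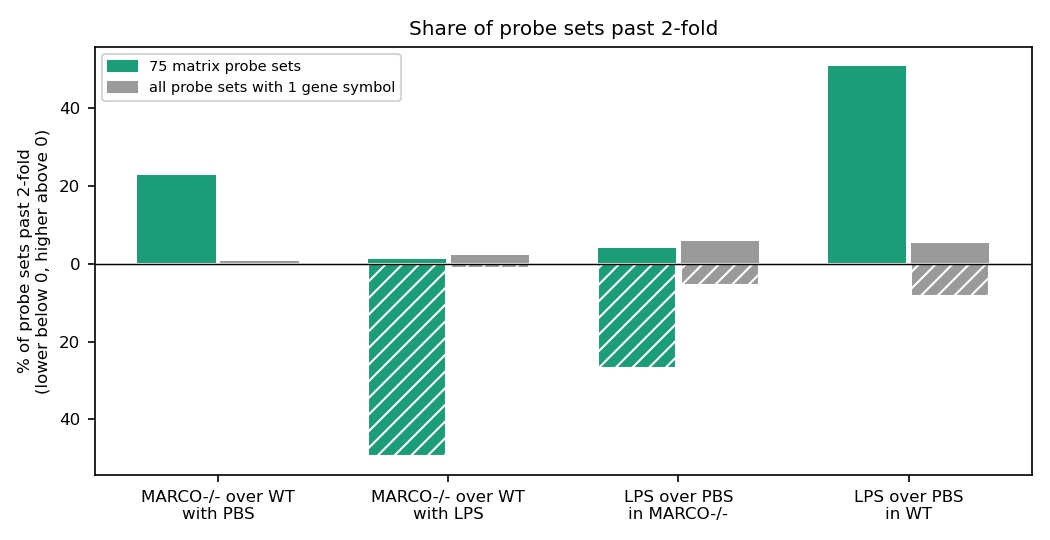
Share of probe sets at least 2-fold higher (above 0) and at least 2-fold lower (below 0, hatched) in each comparison, for the 75 matrix probe sets and for all 28898 with 1 gene symbol. The matrix bars reach 22.7% higher with PBS and 49.3% lower with LPS in MARCO-/- over WT, and 50.7% higher for LPS over PBS in WT.

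Genes with several probe sets allowed a check of their calls. The 17 genes with 1 probe set, among them Mgp, Postn, Fn1, Dcn and Ccn2, allowed none. Of the 23 genes with several, every probe set passed 2-fold between genotypes with PBS in 3 and some but not all did in 3. With LPS, every one passed in 5 and some but not all in 12. No gene had probe sets called in opposite directions in any of the 4 comparisons. That says little, since few calls went against the main direction. None was lower in MARCO-/- with PBS or lower with LPS in WT, so opposite calls could not arise there. Only 1 was higher in MARCO-/- with LPS, and 3 were higher with LPS in MARCO-/-. Of the 75 probe sets, 32 passed 2-fold in no comparison, and 24 of these never exceeded the median of all intensities, as for the second probe sets of Tnc and Loxl1.

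Other matrix genes were set beside these. Over all genes, 0.760% were 2-fold higher in MARCO-/- with PBS, and with LPS 1.31% were lower and 2.09% higher. Of 42 collagen genes, 9 were 2-fold higher in MARCO-/- with PBS and 14 were 2-fold lower with LPS, and their summed intensity was 633 in MARCO-/- and 195 in WT with PBS, and 187 in MARCO-/- and 1634 in WT with LPS. Col3a1 alone had 315 in MARCO-/- and 4.57 in WT with PBS, and 12.1 in MARCO-/- and 959 in WT with LPS. Of 48 further matrix and remodelling genes with an annotated probe set, 3 were 2-fold higher in MARCO-/- with PBS (Spon1, Ccn3 and Pcolce2), 7 were 2-fold lower with LPS and 1, Tgfbi, was 2.62-fold higher. Tgfbi, a secreted adhesive protein that macrophages also make, had 689 in MARCO-/- and 488 in WT with PBS, and 213 in MARCO-/- and 81.3 in WT with LPS. Thus the bright Tgfbi was lower with LPS in both genotypes and did not share the order of Mgp or Sparc.

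Markers of other cell types were counted on the same arrays. The lists here and below are short, and the shares over all genes were again 0.760% higher with PBS, and 1.31% lower and 2.09% higher with LPS. Of 12 skeletal muscle genes, 9 were 2-fold higher in MARCO-/- with PBS and all 12 were 2-fold lower with LPS. Their summed intensity was 245 in MARCO-/- and 68.4 in WT with PBS, and 54.4 in MARCO-/- and 602.5 in WT with LPS. Of 6 smooth muscle and pericyte genes, Acta2 and Rgs5 were higher with PBS and lower with LPS, the sum being 96.1 in MARCO-/- and 27.4 in WT with PBS, and 33.1 in MARCO-/- and 284 in WT with LPS, while Myh11 and Cnn1 stayed at background. Of 9 fibroblast genes outside the matrix, Pdpn and Cxcl12 were higher with PBS, and these and Thy1 were lower with LPS. The fibroblast markers Pdgfra and Gli1 stayed at background. The fibroblast sum was 1539 in MARCO-/- and 1444 in WT with PBS, and 826 in MARCO-/- and 631 in WT with LPS. Unlike the matrix sum it was lowest in WT with LPS, but it was mostly S100a4, which set that order. S100a4 had 1452 in MARCO-/- and 1382 in WT with PBS, and 765 in MARCO-/- and 485 in WT with LPS. Pdpn, Cxcl12, Thy1, Fap and Pdgfrb were each highest in WT with LPS, as the matrix sum was, and Ccl19 was highest in WT with PBS. The part of these cell types in the matrix values was not tested.

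Of 10 endothelial genes, 2 were higher with PBS and 1 was lower with LPS, with sums of 165 in MARCO-/- and 126 in WT with PBS, and 123 in MARCO-/- and 112 in WT with LPS, and Emcn, Tek and Tie1 stayed at background. Of 4 adipocyte genes, Fabp4 was higher with PBS and lower with LPS, with list sums of 132 in MARCO-/- and 60.2 in WT with PBS, and 81.9 in MARCO-/- and 153 in WT with LPS, which is the array order of the matrix sum. Fabp4 alone had 105 in WT with LPS and 76.1 in MARCO-/- with PBS, most of the sum on those arrays. The other adipocyte genes did not share that order: Lpl was highest in MARCO-/- with PBS (42.5), Retn lay between 9.39 and 10.4, and Adipoq stayed at background. Of 9 red pulp macrophage genes, 2 were higher with PBS, and with LPS 2 were higher and 3 lower. Their sums were 2938 in MARCO-/- and 1769 in WT with PBS, and 588 in MARCO-/- and 397 in WT with LPS. Of 4 erythroid genes, 2 were higher with PBS and 1 with LPS, with sums of 6395 in MARCO-/- and 4406 in WT with PBS, and 6832 in MARCO-/- and 3989 in WT with LPS. Xist, which is transcribed in females, had 12.9 in MARCO-/- and 4.73 in WT with PBS, and 4.72 in MARCO-/- and 31.7 in WT with LPS. The Y-linked Eif2s3y had between 122 and 226 on the 4 arrays, Kdm5d between 34.7 and 68.5 and Uty between 14.2 and 28.8. Each of these Y-linked genes was lowest in WT with LPS, where Xist was highest. Xist thus stood above background on the same arrays as the matrix genes. The methods describe cells of each pool cultured with and without agonist, so the PBS and LPS arrays of a genotype may share mice, which was not tested. Xist differed 2.73-fold between the PBS and LPS arrays of MARCO-/- and 6.69-fold between those of WT, each against a value near the median of all intensities. The Y-linked Eif2s3y, Kdm5d and Uty each differed by less than 2-fold there by the brightest probe set.

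If the genotype labels of the LPS arrays had been exchanged, every genotype direction with LPS above would turn, and each LPS comparison would pair other arrays. Ctse, which encodes cathepsin E and was chosen after its values were seen, had 476 in MARCO-/- and 33.6 in WT with PBS, and 262 in MARCO-/- and 8.71 in WT with LPS, the same direction in both. Of 81 genes called in both genotype comparisons over the whole array, 59 were higher with PBS but lower with LPS in MARCO-/-, 16 were higher in both, 3 were lower in both and 3 were lower with PBS and higher with LPS. The 59 include 14 of the matrix genes, 9 collagens and 9 skeletal muscle genes described above, so this count partly restates them. An exchange of arrays, and the sex of the pools, were not tested.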

How the data were processed

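Splenic DC of MARCO-/- and WT mice with PBS or LPS were measured on 4 Affymetrix arrays, 1 per condition. The deposited intensities were background-corrected, normalized and summarized per probe set by the authors with RMAexpress, version not given in the sources used here, and lie on a linear scale. Their log2 was taken with no offset. RMA fits the arrays together and compresses low values, so ratios of dim probe sets are floor-limited.

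Of 45141 probe sets, 104 controls were left out. GEO's platform annotation gives a single gene symbol for 28898 of the other 45037, several for 551 and no entry for 15588. Each gene was represented by its brightest probe set, that with the highest mean log2 intensity. With 1 array per condition no test, error or depth can be given, and the number of arrays limits the precision. Calls used the 2-fold threshold of the methods.

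The genes, lists, role groups and rules were chosen with earlier results of these data known. In each of 6 role groups, members were named with 4 values when the brightest probe set passed 2-fold between genotypes and its highest value exceeded 4 times the median, or when it reached 100 without passing. Other values given in full were chosen after they were seen. Alternatives were quantile normalization, cyclic loess, median centring, an offset of 16, a filter at the median of all intensities, 1 probe set per gene, a 3-fold threshold, and leaving out probe sets ending in x_at, s_at or a_at. The scripts were tested on simulated data. Python 3.11.15 with numpy 2.4.6, pandas 2.3.3 and matplotlib 3.10.9, and R 4.3.3 with limma 3.58.1, were used.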

Additional observations from a re-analysis of the deposited data

Results flagged for a closer look

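For 14 genes, LPS lay at least 2-fold below PBS in MARCO-/- DC and at least 2-fold above PBS in WT DC. By probe set, 17 of 75 met this pair of calls, against 0.242% of all. With 1 array per condition, the difference between genotypes was not tested. It equals the genotype log2 ratio with LPS minus that with PBS, so it restates the genotype comparisons above. The log2 ratio of LPS over PBS in MARCO-/- minus that in WT was -10.70 for Mgp, -9.20 for Postn, -7.99 for Sparc and -7.50 for Bgn. It was -6.03 for Fn1, -5.90 for Dcn, -5.36 for Serpinh1, -5.23 for Tnc and -4.35 for Ccn2. The dimmer genes had -3.68 for Dpt, -3.48 for Mfap5, -3.20 for Mmp2, -2.92 for Sparcl1 and -2.78 for Timp3.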

How the results depend on the processing

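Of 113 repeats of the matrix counts and medians under other settings, 93 stayed within the tolerance, a factor of 1.5 for counts and 0.58 on the log2 scale for medians, and none changed sign. That tolerance is wide against the smaller medians: with 16 added, the PBS genotype median was 0.11 and that of LPS in MARCO-/- was -0.06. Counts were compared as such, although some settings kept fewer than the 75 probe sets. The filter at the median kept 50, 1 probe set per gene 40 and leaving out x_at, s_at or a_at probe sets 62. So 14 of 40 higher with PBS, against 17 of 75, was taken as within the tolerance. Quantile normalization, cyclic loess, median centring and leaving out x_at, s_at or a_at probe sets moved none past it. With 16 added before log2, 6 probe sets were higher in MARCO-/- with PBS, with LPS 0 were higher and 14 lower (median -0.21), and the opposite pair of calls was met by 6. With that offset LPS was above PBS for 1 and below it for 10 in MARCO-/-, and above it for 15 in WT (median 0.24), since the offset shrinks ratios of dim values by construction. A filter at the median of all intensities, and also 1 probe set per gene, gave a median for LPS in WT of 1.66, and 1 probe set per gene left 0 higher in MARCO-/- with LPS. At 3-fold, 11 were higher with PBS, 0 higher with LPS, 11 met the opposite pair, and in MARCO-/- LPS was above PBS for 0 and below it for 13. Without the 9 genes taken as named by the study, a choice made after seeing the data, 6 of 64 were higher with PBS, 6 met the opposite pair and 10 were lower with LPS in MARCO-/-. Among 15 genes with values in full, no 2-fold call was lost under the 3 scalings. With 16 added, the calls lost for LPS over PBS were Dcn, Nid1, Serpinh1 and Tnc in MARCO-/- and Timp1 in WT. No paired analysis was possible because each condition has 1 array, and for the same reason no array could be left out.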

Other observations

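Matrix genes outside the 45 did not share a single order. Spon1 had 28.4 in WT with LPS and 20.7 in MARCO-/- with PBS, its highest values, and Ccn3 (22.0 and 11.5) and Thbs4 (30.7 and 10.1) were likewise highest in WT with LPS and next in MARCO-/- with PBS. Other genes had other orders. Mmp12, macrophage elastase, had 114 in MARCO-/- and 146 in WT with PBS, and 16.4 in MARCO-/- and 25.6 in WT with LPS. Tgm2, a cross-linking transglutaminase, had 404 in MARCO-/- and 209 in WT with PBS, and 56.6 in MARCO-/- and 52.4 in WT with LPS. Agrn, the basement membrane proteoglycan agrin, had 13.2 in MARCO-/- and 8.45 in WT with PBS, and 77.9 in MARCO-/- and 69.4 in WT with LPS. Mmp12, Tgm2 and Agrn each went one way with LPS in both genotypes. These genes were chosen after their values were seen. A probe set annotated with both Gm30003 and Eln, left out of the matrix genes, stayed between 2.17 and 2.52.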
